A study of Mus musculus with 10 samples.

Results

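Collagens and the matrix proteins that sit beside them were followed by RNA sequencing across sorted mammary epithelial cells of mice. The members were the 43 genes whose symbol has the form of a collagen chain (Col, number, a, number), without Col17a1, together with 8 further matrix genes, Dcn, Lum, Bgn, Sparc, Tnc, Fn1, Postn and Thbs1. All 51 were present among the 24000 rows of each deposited table. Of these, 24 reached 100 normalised counts (reads per gene, scaled so that the median gene is level between populations) in some population and are given with their values. A further 13 had at least 20 reads over all populations but peaked between 14.6 and 93.8 normalised counts, and 14 had 15 reads or fewer, among them Col13a1 and Col26a1 with 0 reads everywhere.

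Collagens are built from chains that wind around each other into stiff helices, and each chain type has its own gene. Fibrillar collagens (types I, III and V) give connective tissue its strength and are chiefly made by fibroblasts. Type IV collagen forms the sheet-like network of the basement membrane, which in the mammary gland lies against the myoepithelial (basal) cells that surround the milk-producing luminal cells. Matricellular proteins such as Tnc, Postn, Sparc and Thbs1 do not bear load but tune how cells adhere to and signal from the matrix.

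The cells came from female mice that were knockout (KO) or wild type (WT) for Bptf, a subunit of the nucleosome remodelling factor NURF, and all mice had received tamoxifen at a total of 15 mg per kg. The 10 libraries formed 5 groups of 2, namely Bsecs of the knockout (a name that the labels do not spell out), KO and WT myoepithelial cells, and KO and WT luminal cells. The sources used here name neither the Cre driver nor the age of the mice. The deposited tables hold 1 column for each group, headed as a mean. Every value in a column is a whole multiple of 1 step, so whether it holds 1 library or the summed reads of both cannot be told. Differences below therefore have no replicate check, and every interval covers counting error only. The basal columns bear opposite genotype names in different tables, so they are called the smaller (2036681 counts) and the larger (2359861 counts) basal column, and no Bptf effect is drawn from their difference. For the column headed KO luminal, the title of its libraries names the knockout and their source label names wild-type mice.

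Column totals were 3659403 counts in Bsecs, 3840462 in KO and 2729006 in WT luminal cells. Bptf itself was at 680 normalised counts in Bsecs, 558 and 750.02 in the smaller and larger basal columns, 736 in KO and 571 in WT luminal cells, which does not test a deletion of part of the gene. Lineage markers other than Esr1 matched the sorts of luminal and basal cells. The 13 myoepithelial markers summed to 50587 and 27362 normalised counts in the smaller and larger basal columns, against 780.01 in KO and 263 in WT luminal cells. The 12 luminal markers summed to 2197 and 518 in those basal columns, against 49652 and 56026 in KO and WT luminal cells. Bsecs carried both kinds, at 17876 for the myoepithelial and 11851 for the luminal list, where Krt14 alone stood at 8945 and the contractile genes Acta2 and Cnn1 at 144 and 4.21. The 18 fibroblast markers, none of them a member, summed to 218 in Bsecs, 558 and 1088 in the smaller and larger basal columns, 48.4 in KO and 82.1 in WT luminal cells.

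Members took 0.682% of all counts in Bsecs (exact 95% binomial interval 0.674 to 0.690), 0.985% and 1.63% in the smaller and larger basal columns, 0.431% in KO and 0.405% in WT luminal cells. Thbs1 alone supplied between 51.0% and 76.6% of those reads. The single gene Rn45s took 32.2% of all counts in Bsecs and 9.76% to 16.2% in the other columns. With Rn45s left out of the totals, the members' shares were 1.01% in Bsecs and 1.18% and 1.81% in the smaller and larger basal columns. They were 0.513% in KO and 0.453% in WT luminal cells. Without Thbs1, the other members summed to 9946 normalised counts in Bsecs, 12488 and 18117 in the smaller and larger basal columns, 2806 in KO and 2833 in WT luminal cells. In sorted bulk samples, fewer cells that make a transcript and less of it per cell cannot be told apart.

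**Figure D1:**
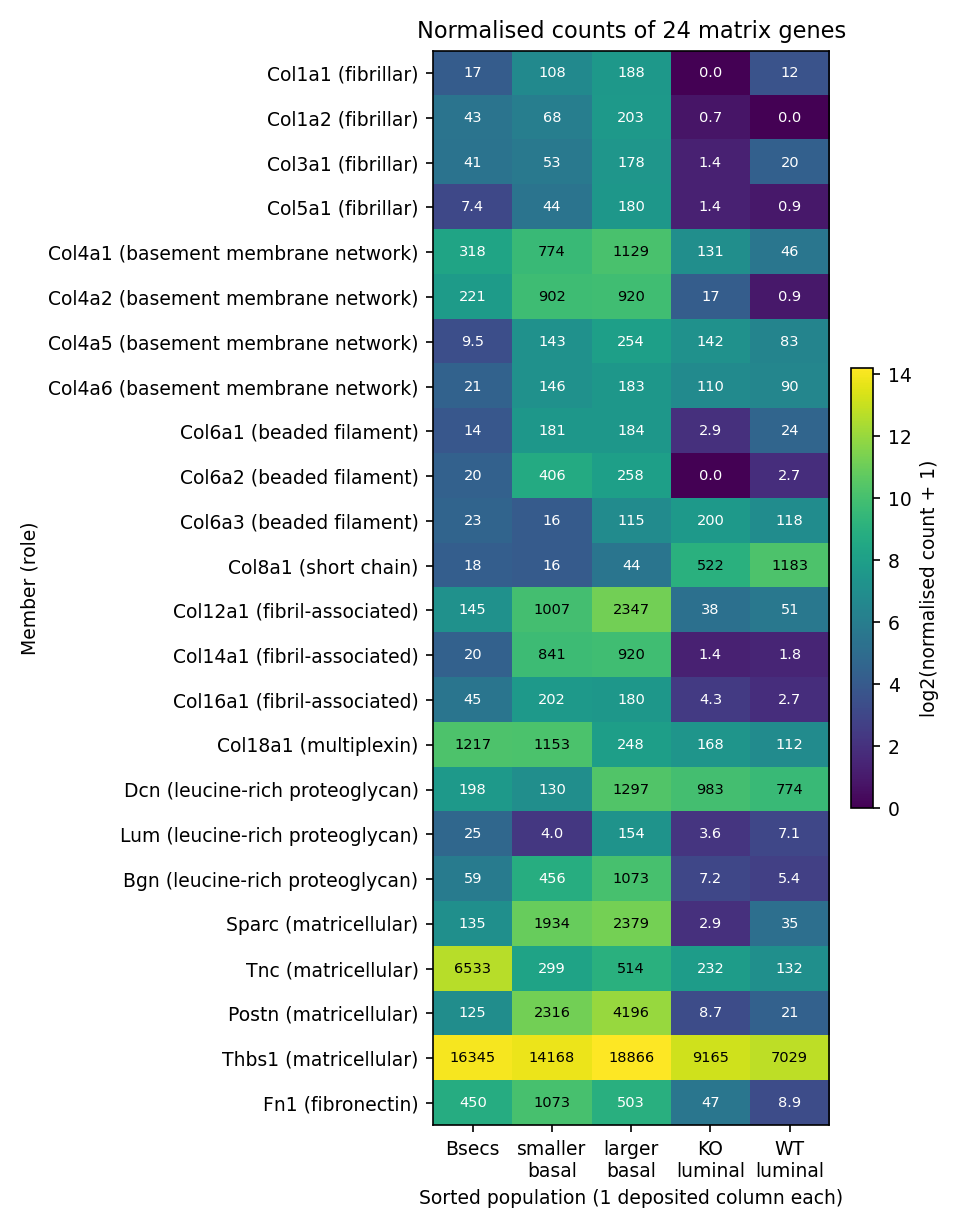
Each row is 1 of the 24 genes with at least 100 normalised counts in some population, grouped by role, and each column is 1 deposited column. Cells print the normalised count and are coloured by log2(normalised count + 1). The basal columns hold the highest value of 20 genes, while Tnc and Col18a1 peak in Bsecs and Col8a1 and Col6a3 in luminal cells.

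Basal cells were set against luminal cells, genotypes mixed, to place each gene in a lineage. Of the 37 members with at least 20 reads over these 4 columns, 26 (70.3%) had both basal columns above both luminal columns, where the same held for 25.4% of all 11911 genes with as many reads. They included the network collagens Col4a1 and Col4a2, the fibril-associated Col12a1 and Col14a1, and Sparc, Postn, Bgn and Fn1. Another 4 (10.8%) had both basal columns below both luminal columns, against 30.3% of all genes, namely Col8a1, Col6a3, Col4a4 and Col10a1. The place of Col6a3 rests on a near tie, at 115 normalised counts in the larger basal column and 118 in WT luminal cells. So does that of Col4a5, counted among the 26, at 143.4 in the smaller basal column and 142.4 in KO luminal cells. The remaining 7, Dcn, Lum, Col5a3, Col7a1, Col15a1, Col20a1 and Col28a1, overlapped. With 2 columns a side no exact permutation test can give a two-sided p below 0.3333, so these counts are a description. Of the fibroblast markers, 10 of 13 with 20 reads also lay above in both basal columns, and their part in the members' count was not tested.

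Type IV collagen showed how chains of 1 network can go together or apart. Col4a1 and Col4a2 supply the chains of the common basement membrane helix, and their genes lie head to head on mouse chromosome 8. The promoter windows below, each running from 250 bases before to 50 bases after the transcript start in RefSeq (GRCm38.p6), are printed because they overlap. Capitals mark the 78 bases that both windows hold, read from opposite strands. The Col4a1 window is chr8:11312777-11313076 on the minus strand and the Col4a2 window is chr8:11312555-11312854 on the plus strand, with starts 21 bases apart.
Col4a1: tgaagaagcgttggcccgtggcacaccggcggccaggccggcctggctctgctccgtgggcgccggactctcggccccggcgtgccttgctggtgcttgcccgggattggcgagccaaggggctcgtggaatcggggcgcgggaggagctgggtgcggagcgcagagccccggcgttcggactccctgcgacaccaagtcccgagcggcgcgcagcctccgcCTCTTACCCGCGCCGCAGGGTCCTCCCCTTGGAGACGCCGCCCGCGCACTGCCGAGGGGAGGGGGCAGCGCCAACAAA
Col4a2: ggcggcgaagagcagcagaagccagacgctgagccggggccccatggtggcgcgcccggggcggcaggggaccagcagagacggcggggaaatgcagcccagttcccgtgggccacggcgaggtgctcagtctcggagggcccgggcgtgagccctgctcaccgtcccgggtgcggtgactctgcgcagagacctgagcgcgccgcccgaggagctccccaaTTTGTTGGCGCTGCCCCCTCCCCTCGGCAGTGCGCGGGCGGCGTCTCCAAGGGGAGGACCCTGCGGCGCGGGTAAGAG

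The letters CCAAT, searched on both strands, occur 1 time in each window and in 37.4% of all 32851 windows in that table. GGGCGG, likewise on both strands, occurs 1 time in the Col4a1 window and 3 times in the Col4a2 window, 1 of them in the shared bases, and in 35.7% of all windows. TATAAA occurs in neither, against 13.6% of all windows. These matches describe the letters and no binding was measured here.

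Levels of the pair differed by lineage. Col4a1 had 318 normalised counts in Bsecs, 774 and 1129 in the smaller and larger basal columns, 131 in KO and 46.4 in WT luminal cells. Col4a2 had 221 in Bsecs, 902 and 920.2 in those basal columns, 17.3 in KO luminal and 0.892 (1 read) in WT luminal cells. Per kilobase of exon, so that the genes can be compared, Col4a2 stood at 0.713 times Col4a1 in Bsecs (0.595 to 0.853), at 1.19 times (1.07 to 1.34) in the smaller basal column and 0.836 times (0.767 to 0.911) in the larger. In KO luminal cells the same ratio was 0.136 (0.0849 to 0.209), from 24 reads against 181, and in WT luminal cells 0.0197 (0.000490 to 0.115), from 1 read against 52. Both chains were thus read at near-equal levels per kilobase in basal cells, while the luminal reads were mostly Col4a1. Exons of the pair overlap on opposite strands in the GENCODE M21 annotation, and the sources used here do not state the strand setting of the counting.

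Col4a5 and Col4a6, the X-linked pair of type IV chains, behaved otherwise. Col4a5 was at 9.48 normalised counts in Bsecs, 143 and 254 in the smaller and larger basal columns, 142 in KO and 83.0 in WT luminal cells. Col4a6 was at 21.1 in Bsecs, 146 and 183 in the smaller and larger basal columns, 110 in KO and 90.1 in WT luminal cells. Luminal cells therefore carried much of the basal level of this pair, and Bsecs were below all other columns. Per kilobase, Col4a6 was at 0.708 to 1.07 times Col4a5 in the 4 basal and luminal columns. Of the remaining type IV chains, Col4a4 peaked at 43.4 in KO luminal cells and Col4a3 had 3 reads in all.

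**Figure D2:**
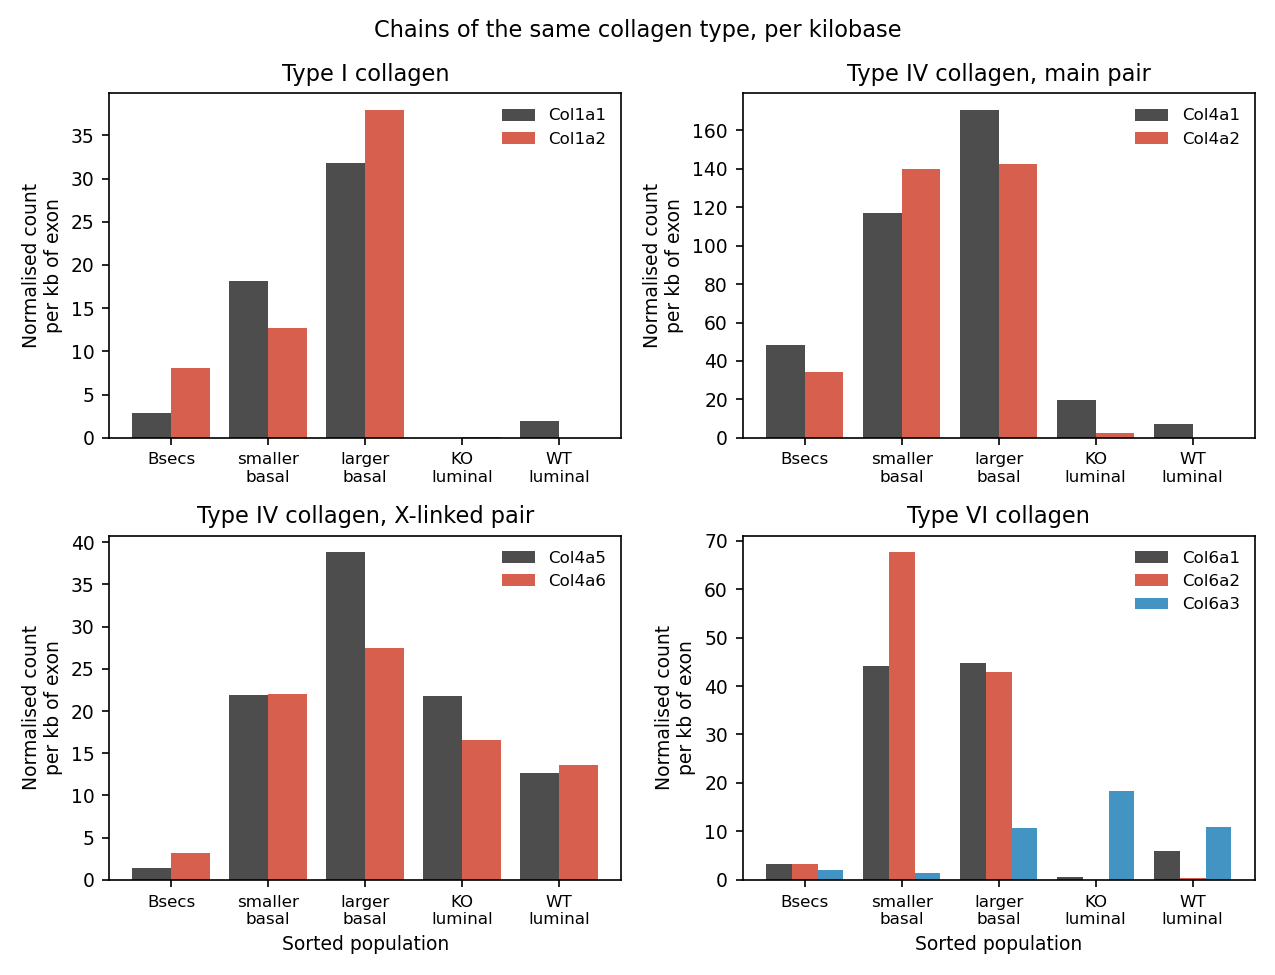
Bars give normalised counts per kilobase of exon for the chains of a collagen type in each deposited column, on axes that start at 0 and differ between panels. Col4a1 and Col4a2 stand side by side in basal cells, while Col6a3 leads the type VI chains in luminal cells and trails them in basal cells.

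Type VI collagen, a beaded filament found around many cells, is assembled from an alpha 1, an alpha 2 and an alpha 3 chain. Col6a1 had 13.7 normalised counts in Bsecs, 181 and 184 in the smaller and larger basal columns, 2.89 in KO and 24.1 in WT luminal cells. Col6a2 had 20.02 in Bsecs, 406 and 258 in those basal columns, 0 reads in KO luminal cells, which allows up to 2.17 normalised counts, and 2.68 in WT luminal cells. Col6a3 had 23.2 in Bsecs, 15.9 and 115 in those basal columns, 200 in KO and 118 in WT luminal cells. Col6a1 and Col6a2 were thus basal genes, and Col6a3 was the only type VI chain with more than 27 reads in either luminal column. Per kilobase, Col6a3 stood at 0.0217 times Col6a2 (0.0111 to 0.0385) in the smaller basal column and 0.248 times (0.198 to 0.309) in the larger, against 24.4 times (8.16 to 120) in WT luminal cells, where Col6a2 had 3 reads. The alternative alpha 3-like chains Col6a4, Col6a5 and Col6a6 had 13, 15 and 5 reads in all.

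Col8a1, a short-chain network collagen, had the most reads of the 4 members that lay lower in both basal columns, at a basal mean of 0.0353 times its luminal mean. It stood at 17.9 normalised counts in Bsecs, 15.9 and 44.2 in the smaller and larger basal columns, 522 in KO and 1183 in WT luminal cells. Its partner Col8a2 had 7 reads in Bsecs, 2 in the larger basal column and 0 in either luminal column, against 722 and 1326 reads of Col8a1 in KO and WT luminal cells. Col10a1, another short-chain collagen, had 0 and 2 reads in the smaller and larger basal columns, against 18 and 19 in KO and WT luminal cells. Nt5dc1, whose exons overlap Col10a1 on the opposite strand, had 69 and 101 reads in the same luminal columns, and the source of the Col10a1 reads was not tested.

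The 4 fibrillar chains that reached 100 normalised counts, Col1a1, Col1a2, Col3a1 and Col5a1, all peaked in the larger basal column. Col1a1 had 16.9 normalised counts in Bsecs, 108 and 188 in the smaller and larger basal columns, 0 reads in KO luminal cells and 11.6 in WT luminal cells. Col1a2 had 43.2 in Bsecs, 67.7 and 203 in those basal columns, 0.723 in KO luminal cells and 0 reads in WT luminal cells. No luminal column held more than 13 reads of either type I chain. Col3a1 followed at 41.1 in Bsecs, 53.1 and 178 in the basal columns, 1.45 in KO and 19.6 in WT luminal cells. Col5a1, which helps to start fibrils, was at 7.38 in Bsecs, 43.8 and 179.8 in the basal columns, 1.45 in KO and 0.892 in WT luminal cells. In the larger basal column, per kilobase, Col1a1 was at 31.8 and Col1a2 at 37.9 normalised counts, while Col18a1 was at 36.5, Col6a2 at 42.9, the network chains Col4a1 and Col4a2 at 171 and 143, Sparc at 874 and Postn at 1276. The other fibrillar chains with 20 reads peaked in different columns, Col5a2 at 82.7 in the larger basal, Col5a3 at 35.7 in the WT luminal, Col11a1 at 14.6 in the smaller basal and Col27a1 at 48.5 in the Bsecs column, while Col2a1, Col11a2 and Col24a1 had at most 8 reads each.

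Of 6 fibril-associated collagens (chains that coat fibrils) with 20 reads, 5 had both basal columns above both luminal columns and Col20a1 overlapped. Both basal columns were likewise above in 25.4% of all genes with as many reads. Col12a1 had 145 normalised counts in Bsecs, 1007 and 2347 in the smaller and larger basal columns, 37.6 in KO and 50.9 in WT luminal cells. Col14a1 had 20.02 in Bsecs, 841 and 920.2 in those basal columns, 1.45 in KO and 1.78 in WT luminal cells, the last values being 2 reads each. Col16a1 had 45.3 in Bsecs, 202 and 179.8 in those basal columns, 4.34 in KO and 2.68 in WT luminal cells. Both basal columns therefore stood far above both luminal columns for these 3 genes, with Bsecs in between. Per kilobase in the smaller and larger basal columns, Col12a1 stood at 82.8 and 193, Col14a1 at 130.1 and 142 and Col16a1 at 38.8 and 34.5 normalised counts. Col18a1, a basement membrane collagen whose end fragment is endostatin, had another pattern, with 1217 in Bsecs, 1153 and 248 in the smaller and larger basal columns, 168 in KO and 112 in WT luminal cells.

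Among the matricellular genes, Sparc, a collagen-binding protein, was at 135 normalised counts in Bsecs, 1934 and 2379 in the smaller and larger basal columns, 2.89 in KO and 34.8 in WT luminal cells. Postn (periostin) was at 125 in Bsecs, 2316 and 4196 in those basal columns, 8.67 in KO and 20.5 in WT luminal cells. Fn1 (fibronectin), the adhesive glycoprotein on which other matrix is laid, was at 449.9 in Bsecs, 1073 and 503 in those basal columns, 47.0 in KO and 8.92 in WT luminal cells. These 3 genes were basal by a wide margin, though Fn1 in Bsecs came close to the larger basal column. Thbs1 (thrombospondin 1), which binds and activates latent TGF-beta, was high everywhere, at 16345 in Bsecs, 14168 and 18866 in the basal columns, 9165 in KO and 7029 in WT luminal cells. Tnc (tenascin C), an anti-adhesive glycoprotein of wounds and developing glands, was at 6533 in Bsecs, 299 and 514 in the basal columns, 232 in KO and 132 in WT luminal cells.

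The leucine-rich proteoglycans, which bind collagen fibrils, did not move as a family. Dcn (decorin) had 198 normalised counts in Bsecs, 130 and 1297 in the smaller and larger basal columns, 983 in KO and 774 in WT luminal cells. Lum (lumican) had 25.3 in Bsecs, 3.98 and 154 in those basal columns, 3.61 in KO and 7.14 in WT luminal cells. Bgn (biglycan) had 59.0 in Bsecs, 456 and 1073 in those basal columns, 7.23 in KO and 5.35 in WT luminal cells. Dcn was thus high in 3 of 5 columns, Lum in 1 and Bgn in the basal columns. Per kilobase, Lum stood at 0.101 times Dcn (0.0632 to 0.155) in Bsecs and 0.0939 times (0.0792 to 0.111) in the larger basal column. In the smaller basal column the ratio was 0.0242 (0.00492 to 0.0730), from 3 reads against 98. It was 0.00291 (0.000944 to 0.00681) in KO luminal and 0.00730 (0.00314 to 0.0144) in WT luminal cells. Fibroblast markers in the luminal columns were uneven. Of the 18 markers 6 had 0 reads in KO and 11 in WT luminal cells, and the type I chains were at 0 to 11.6 normalised counts in both. Pdgfra, at 103 in the larger basal column, was at 0.723 in KO and 2.68 in WT luminal cells. Dpt and Thy1 were at 15.9 and 15.2 in KO luminal cells, against 0.892 and 0 in WT luminal cells, and Scara5 was at 4.34 in KO and 55.3 in WT luminal cells. The part of fibroblasts in luminal Dcn was not tested.

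The smaller basal column held less Lum, Dcn, Col6a3 and Col5a1 than the larger, and more Col18a1. Of 34 members with 20 reads in both columns together, 8 (23.5%) were 4-fold or more below the larger column, where 9.21% of all 9483 genes were, and 1, Col18a1, was 4-fold or more above it, where 5.56% of all genes were. The members' median log2 fold, smaller over larger, was -0.80, against -0.03 for all genes. Lum was 38.6-fold lower in the smaller column (12.98 to 189), Dcn 9.97-fold (8.11 to 12.4), Col6a3 7.24-fold (3.99 to 14.4) and Col5a1 4.10-fold (2.82 to 6.13). Col15a1 had 0 reads in the smaller and 74 in the larger column, at least 17.9-fold lower, and Col28a1 0 against 29, at least 6.998-fold lower. Col23a1 and Col5a3 had 6 reads each against 34. On the other side Col18a1 was 4.65-fold higher (4.04 to 5.36) and Fn1 2.13-fold (1.91 to 2.39).

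For other members the ratio of smaller to larger basal column was near 1. It was 0.980 for Col4a2 (0.887 to 1.08), 0.984 for Col6a1 (0.783 to 1.23), 0.914 for Col14a1 (0.825 to 1.01) and 0.813 for Sparc (0.761 to 0.868). Col1a1, Col1a2 and Col3a1 lay between, at 0.571 (0.435 to 0.743), 0.334 (0.241 to 0.455) and 0.299 (0.207 to 0.422). Of 12 fibroblast markers with 20 reads, 5 lay 4-fold or more below the larger column and 1 (Scara5) as far above it, at a median log2 fold of -1.59. Dpt was at 45.2 in the smaller and 351 in the larger column (7.77-fold lower, 5.46 to 11.4) and Pdgfra at 17.3 and 103 (5.96-fold, 3.34 to 11.6). Scara5 had 154 and 26 reads there (8.18-fold higher, 5.38 to 12.9). Of 5 endothelial markers 3 were lower in the smaller column, among them Cdh5 at 19.9 and 113 and Pecam1 at 19.9 and 81.7, and 2 were higher, Eng at 59.8 and 12.5 and Egfl7 at 25.2 and 3.85. Luminal markers differed too, with 3 of 7 higher and 1 lower at a median log2 fold of 1.97, and Esr1, the oestrogen receptor, stood at 947 in the smaller and 28.8 in the larger column (32.8-fold higher, 22.8 to 49.02). The part of fibroblasts, vessels or luminal cells in the members' differences was not tested. None of the 49 members with a p-value passed an adjusted p of 0.05 between the basal columns, with the DESeq p-values of the authors' deposited table adjusted after Benjamini and Hochberg, where 0.0274% of all genes did. An unadjusted p under 0.05 was found for 5 members and for 3.09% of all genes.

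**Figure D3:**
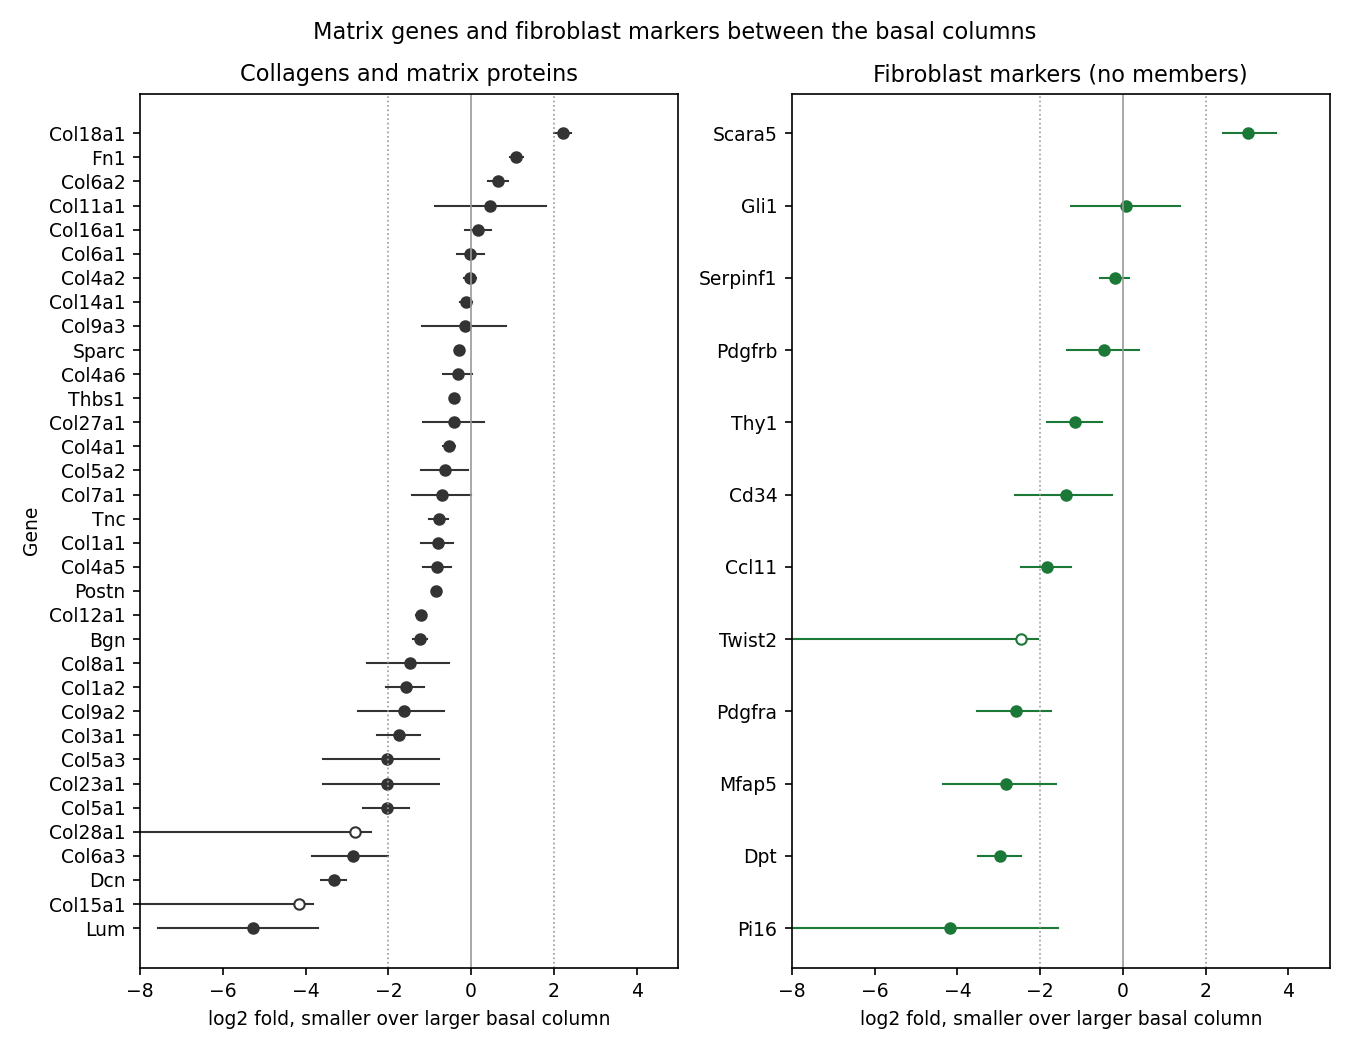
Points give log2 folds, smaller over larger basal column, for the 34 members and, at the right, the 12 fibroblast markers with at least 20 reads in both columns together. Lines are exact 95% counting intervals, open points are bounds against 0 reads and dotted lines mark 4-fold. Lum, Col15a1 and Dcn lie far to the left, while Col4a2, Col6a1, Col14a1 and Sparc sit near 0. Of the 12 fibroblast markers, 5 lie 4-fold or more to the left, among them Pi16, Dpt and Pdgfra. Scara5 lies 4-fold or more to the right, and the rest lie between.

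Bsecs held less Col14a1, Postn, Sparc and Col4a5, and more Tnc, than either basal column. Against the larger basal column 21 of 35 members (60.0%) were at least 4-fold lower and 3 higher, where 12.6% and 9.10% of all 9815 genes were, at a median log2 fold of -2.32 against -0.02 for all genes. Against the smaller column 14 of 31 (45.2%) were lower and 2 higher, where 11.3% and 11.5% of all 9213 genes were, at a median of -1.28 against 0.04. Both comparisons use the same Bsecs column. The 13 genes lower against both were Col1a1, Col5a1, Col5a2, Col4a2, Col4a5, Col4a6, Col6a1, Col6a2, Col12a1, Col14a1, Bgn, Sparc and Postn. Tnc alone was higher against both. The share of all genes called against both basal columns is not given here, so these joint lists are a description. Counting order alone, of 37 members 21 (56.8%) were below both basal columns in Bsecs and 7 above, where 33.3% and 34.9% of all 12221 genes were. Below all 4 other columns were Col4a5, Col4a6, Col11a1 and Col9a2 (10.8%, against 18.8% of all genes), and above all 4 were Tnc, Col18a1, Col7a1, Col20a1 and Col27a1 (13.5%, against 19.2%).

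By size, Col14a1 in Bsecs was 46.0-fold lower than in the larger (29.3 to 76.7) and 42.0-fold lower than in the smaller basal column (26.7 to 70.2). Postn was 33.5-fold (27.9 to 40.5) and 18.5-fold (15.3 to 22.4) lower, and Sparc 17.6-fold (14.8 to 21.2) and 14.3-fold (11.96 to 17.3). Col4a5 was 26.8-fold (13.9 to 59.2) and 15.1-fold (7.68 to 34.0) lower, a larger gap than that of Col4a1, at 3.55-fold and 2.43-fold. Tnc was 12.7-fold higher than in the larger (11.6 to 13.9) and 21.9-fold higher than in the smaller column (19.1 to 25.1). Col18a1 was 4.91-fold higher than in the larger column (4.28 to 5.64) and near the smaller, at 1.06 (0.966 to 1.15). Thbs1 was at 0.866 and 1.15 times the larger and smaller basal values. Col14a1 was the 1 member past an adjusted p of 0.05 in either comparison, at 0.0491 where set against the larger and 0.0371 where set against the smaller column, with the DESeq p-values of the authors' deposited tables adjusted after Benjamini and Hochberg, where 0.480% and 0.759% of all genes passed. Before adjustment, 15 of 49 members against the larger and 10 of 41 against the smaller column had a p under 0.05. The same held for 4.61% and 4.91% of all genes. Fibroblast markers were lower as well in Bsecs, 7 of 11 against the larger and 3 of 6 against the smaller column, and so were 9 of 13 myoepithelial markers against each, while luminal markers were higher, 8 of 9 against the larger and 7 of 9 against the smaller. The part of these cell types in the members' levels was not tested.

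Against luminal cells, Bsecs held more Tnc, Fn1, Postn, Bgn and Col4a2, and less Col8a1, Col6a3, Col4a5 and Col4a6. Of 27 members 13 (48.1%) were at least 4-fold higher than in KO luminal cells and 6 lower, where 7.11% and 17.7% of all 10413 genes were, at a median log2 fold of 1.95 against -0.12. Of 29 members 13 (44.8%) were higher than in WT luminal cells and 5 lower, where 10% and 17.0% of all 10125 genes were, at a median of 1.82 against -0.11. The 10 higher against both were Col1a2, Col27a1, Col4a2, Col14a1, Col16a1, Col18a1, Bgn, Tnc, Postn and Fn1, and the 5 lower against both were Col4a5, Col4a6, Col6a3, Col8a1 and Col10a1. Both comparisons again use the same Bsecs column, and the share of all genes called against both is not given here. Tnc was 28.2-fold (25.2 to 31.6) and 49.5-fold (42.03 to 58.6) higher than in KO and WT luminal cells, and Fn1 9.57-fold (7.36 to 12.6) and 50.4-fold (27.2 to 106). Col8a1 was 29.1-fold (18.1 to 50.3) and 66.1-fold (41.1 to 114) lower. No member passed an adjusted p of 0.05 against KO or WT luminal cells, where 0.0405% and 0.210% of all genes did by the DESeq p-values of the authors' deposited tables. An unadjusted p under 0.05 was found for 10 of 43 and 8 of 39 members, and for 3.82% and 4.29% of all genes. Of 10 myoepithelial markers 6 and 8 were at least 4-fold higher in Bsecs than in KO and WT luminal cells, as were 3 of 4 and 3 of 5 fibroblast markers, while 8 of 12 luminal markers were lower against each, and their part in the members' levels was not tested. When at least 50 reads were required in place of 20, the members at least 4-fold apart from KO luminal cells numbered 12 in place of 19. Those apart from WT luminal cells numbered 12 in place of 18. The share of all genes at that minimum is not given here.

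**Figure D4:**
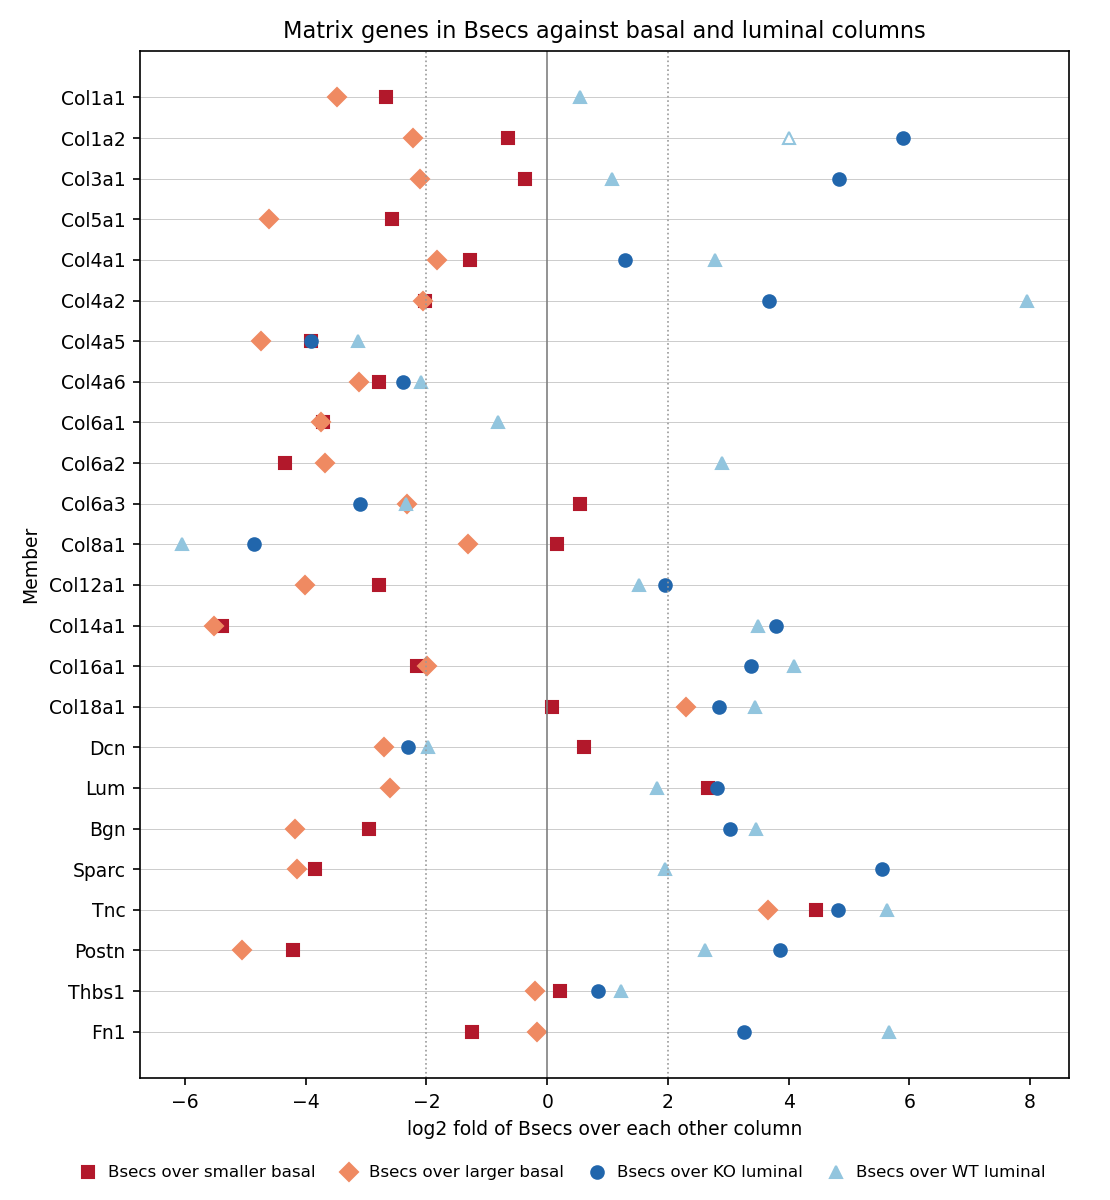
Points give log2 folds of Bsecs over each of the other 4 columns for the 24 genes, shown where both columns together had at least 20 reads. Dotted lines mark 4-fold, and the open point is a bound against 0 reads. Most genes lie left of 0 against basal columns and right of 0 against luminal columns, Tnc lies right of 0 against all 4, and Col4a5 and Col4a6 lie left of 0 against all 4.

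The luminal columns, headed KO and WT, differed most in Col7a1 and Col4a2, both higher in KO luminal cells. Title and source label of the KO luminal libraries conflict on genotype, so no Bptf effect is drawn from this difference. Of 21 members with 20 reads, 3 (14.3%) were at least 4-fold higher in KO luminal cells and 4 (19.05%) lower, where 6.73% and 4.57% of all 10613 genes were, and the median log2 fold was 0.34 against 0.04 for all genes. Col7a1, which forms the anchoring fibrils that tie basement membrane to stroma, had 113 reads in KO and 1 in WT luminal cells, 91.6-fold higher (16.1 to 3648). Its level was 93.8 normalised counts in Bsecs and 33.2 and 53.8 in the smaller and larger basal columns, against 81.7 in KO and 0.892 in WT luminal cells. Col4a2 had 24 reads against 1, 19.4-fold higher (3.17 to 800), and Fn1 65 against 10, 5.27-fold higher (2.69 to 11.5).

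Lower in KO luminal cells were Sparc, with 4 reads against 39 (12.03-fold, 4.34 to 46.4), Col3a1, with 2 against 22 (13.6-fold, 3.34 to 119), Col6a1, with 4 against 27 (8.33-fold, 2.90 to 32.8), and Col5a3, with 11 against 40 (4.49-fold, 2.26 to 9.70). Those 4 genes had at most 40 reads in a luminal column. Among the well-read luminal members, Col8a1 was at 0.441 times its WT level in KO luminal cells (0.402 to 0.483), Col6a3 at 1.69 times (1.37 to 2.10), Dcn at 1.27 times (1.17 to 1.38) and Thbs1 at 1.30 times (1.27 to 1.34), none of them 4-fold apart. None of the 41 members with a p-value passed an adjusted p of 0.05, where 0.0882% of all genes did by the DESeq p-values of the authors' deposited table. An unadjusted p under 0.05 was found for 1 member and for 3.74% of all genes, and Col7a1 had an adjusted p of 0.140. With a minimum of 50 reads the members at least 4-fold apart numbered 3 in place of 7, and the share of all genes at that minimum is not given here. Of 7 myoepithelial markers with 20 reads, 4 were at least 4-fold higher in KO luminal cells, among them Krt14 at 215 in KO and 48.2 in WT luminal cells. Of 4 fibroblast markers 2 were higher and 1 lower. Their part in the members' differences was not tested.

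Genes that make and cross-link collagen were listed apart from the members. Of 29 in the tables, 12 had both basal columns above both luminal columns and 3 below, out of 24 with 20 reads, where 25.4% and 30.3% of all genes did. Serpinh1 (Hsp47), the chaperone that escorts collagen through the secretory pathway, was at 68.5 normalised counts in Bsecs, 1397 and 514 in the smaller and larger basal columns, 45.5 in KO and 20.5 in WT luminal cells. In Bsecs it was 7.51-fold lower than in the larger (5.80 to 9.87) and 20.4-fold lower than in the smaller basal column (15.9 to 26.6). The lysyl hydroxylase Plod2 was 7.71-fold lower in Bsecs when set against the larger column (4.84 to 12.9) and the folding enzyme Fkbp10 7.73-fold lower than in the smaller (4.45 to 14.4). Loxl4, a cross-linking oxidase, ran the other way, with 142 reads in Bsecs against 3 and 5 in the smaller and larger basal columns, 37.5-fold (12.6 to 184) and 31.1-fold higher (13.03 to 97.3). P4ha2, a prolyl hydroxylase subunit, was 9.89-fold (5.62 to 18.97) and 4.93-fold higher (3.42 to 7.29) in Bsecs than in the smaller and larger columns, and 5.63-fold higher than in WT luminal cells (3.87 to 8.40). Set against the larger column, 9 of 21 such genes were at least 4-fold lower and 2 higher in Bsecs (all genes 12.6% and 9.10%), and set against the smaller 5 and 3 of 17 (all genes 11.3% and 11.5%). Against KO and WT luminal cells 0 and 2 of 16 were higher (all genes 7.11% and 10%) and none lower. Between the basal columns 0 of 21 were higher and 3 lower in the smaller (all genes 5.56% and 9.21%), and 1 of 15 was higher and 0 lower in KO luminal cells (all genes 6.73% and 4.57%).

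Collagen receptors with 20 reads numbered 7, of which 4 had both basal columns above both luminal columns and 2 below. Over all genes these shares were 25.4% and 30.3%. The integrin Itga2, which with Itgb1 binds collagen, was at 2344 normalised counts in Bsecs, 222 and 350.01 in the smaller and larger basal columns, 1377 in KO and 1340.0 in WT luminal cells. Itga1, the alternative partner, was at 10.5 in Bsecs, 125 and 93.3 in those basal columns, 9.40 in KO and 7.14 in WT luminal cells. Itga1 was thus basal, and Itga2 was highest in Bsecs. In Bsecs Itga2 was 6.70-fold (5.99 to 7.50) and 10.6-fold higher (9.03 to 12.4) than in the larger and smaller basal columns, and the receptor kinase Ddr2 had 7 reads against 204 in the larger (26.6-fold lower, 12.7 to 67.0). Itga11 had 2 reads in Bsecs and 10 in the smaller basal column against 107 in the larger, 48.8-fold (13.2 to 408) and 7.75-fold lower (4.05 to 16.6). Over the list, in Bsecs 1 of 7 was higher and 3 lower when set against the larger column (all genes 9.10% and 12.6%), and 2 of 6 each way against the smaller (all genes 11.5% and 11.3%). Against KO and WT luminal cells 1 of 5 and 2 of 4 were higher (all genes 7.11% and 10%) and none lower. Between the basal columns 0 of 6 were higher and 1 lower in the smaller (all genes 5.56% and 9.21%), and between the luminal columns 0 of 4 were apart (all genes 6.73% higher and 4.57% lower).

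Other leucine-rich and matricellular proteins, 27 in all, gave 11 with both basal columns above both luminal columns and 5 below, of 20 with 20 reads, where 25.4% and 30.3% of all genes did. Ctgf, a matricellular target of mechanical and TGF-beta signals, had 18 reads in Bsecs, 2074 and 5562 in the smaller and larger basal columns, 145-fold (91.7 to 246) and 282-fold lower (178 to 476). Prelp, a proteoglycan of basement membranes, had 12 reads in Bsecs against 1313 and 1610 in those columns, 138-fold (78.7 to 268) and 122-fold lower (69.9 to 237). Both thus stood further below the basal columns than any named member did. Versican (Vcan) and fibulin 2 (Fbln2) were read in Bsecs at 139 and 136 normalised counts, against 7.23 and 2.17 in KO luminal cells and 0 reads in WT luminal cells, which is at least 52.0-fold and 50.8-fold higher than WT. Set against the larger basal column, 10 of 16 of this list were lower and 0 higher in Bsecs (all genes 12.6% and 9.10%), and set against the smaller 6 lower and 1 higher of 14 (all genes 11.3% and 11.5%). Against KO luminal cells 6 of 16 were higher and 6 lower (all genes 7.11% and 17.7%), and against WT luminal cells 5 of 13 were higher and 4 lower (all genes 10% and 17.0%). Between the basal columns 0 of 16 were higher and 3 lower in the smaller (all genes 5.56% and 9.21%). In KO luminal cells 0 of 10 were higher and 2 lower than in WT (all genes 6.73% and 4.57%), among them Wisp2 with 46 reads against 167 (4.48-fold lower, 3.22 to 6.35).

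Markers of other cell types were read at levels that differed by gene and column. Summed normalised counts ran, over the 5 columns, from 24.2 in Bsecs to 261 in the larger basal column for 10 endothelial genes, from 56.9 in Bsecs to 267 in KO luminal cells for 7 pericyte genes, and from 20.2 in KO luminal cells to 118 in the smaller basal column for 7 adipocyte genes. They ran from 255 in Bsecs to 580.5 in KO luminal cells for 6 Schwann genes and from 16.3 in the larger basal column to 143 in KO luminal cells for 7 leukocyte genes. Single genes of these lists reached further, with Mbp at 511 in KO luminal cells, Sox10 at 389 and 260 in the smaller and larger basal columns and Notch3 at 248 in KO luminal cells. Their part in the levels of the members was not tested.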

How the data were processed

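RNA from sorted mammary cells was amplified and sequenced, and the authors deposited 6 tables with 1 column of mean signal per group (normalised counts as DESeq scales them) and p-values, per the file headers. The submitters' processing notes name STAR, DESeq and the genome build mm9, while for versions, counter, annotation and strand setting the sources used here give nothing. Every value in the deposited signal columns is a whole multiple of 1 step (100% within 0.01 of a count), so counts were recovered, and whether a column is 1 library or the sum of both cannot be told. They gave 5 distinct columns of 2036681 to 3840462 counts, and basal columns were matched between tables by their identical counts. The tables hold 0 columns per library and 0 columns of other origin.

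Counts were put on 1 scale by median of ratios over 9791 genes. A fold was called at 4-fold or more with at least 20 reads in both columns together. A column at 0 was set to a floor of 3 counts, which makes the fold a bound. Intervals are exact Clopper-Pearson 95% intervals of the split of reads and, like floors, cover counting error only, since PCR reads are not independent molecules. The deposited p-values are unadjusted, come from 1 column against 1, and were adjusted over all genes with a p-value. The 27 symbols turned to dates or duplicated were left out per gene. Exon lengths are unions of GENCODE M21 basic exons, 38 of 51 members matched the RefSeq promoter table, and coordinates are of GRCm38.p6, not mm9. Values are given for members reaching 100 normalised counts, and for up to 4 genes per list and comparison at least 4-fold apart with 100 reads. Other genes were named after their values were seen. The members and the 11 lists (Lox is in 2 of them) were chosen with earlier results of these data known. Alternatives were column totals without Rn45s, TMM factors (edgeR 4.0.16), the tables' own scale, 50 reads in place of 20 and a filter before adjustment. Folds and intervals were tested on simulated counts. Python 3.11.15, scipy 1.17.1 and R 4.3.3 were used.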

Additional observations from a re-analysis of the deposited data

How the results depend on the processing

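No paired analysis was possible because the deposited columns carry no replicate numbers, and no library could be left out for the same reason. Requiring 50 reads in place of 20 left 3 members at least 4-fold apart between the luminal columns, in place of 7. Between Bsecs and KO luminal cells it left 12 in place of 19. The share of all genes at that minimum is not given here, so these counts are a description. The same minimum left 12 members in place of 18 between Bsecs and WT luminal cells, and 6 in place of 9 between the basal columns. Those 2 changes lie at the edge of 1.5 times. In the other alternatives run, each count of members stayed within 1.5 times its value. The count of members whose basal and luminal columns do not overlap was 30, and 29 with totals without Rn45s and with TMM factors. It was 29 to 34 with each of the 4 columns left out in turn, an alternative chosen after seeing the data. Separated columns cannot begin to overlap when a column is left out, so this count could fall only through the minimum of 20 reads. Leaving columns out therefore does not show that the count is stable. Totals without Rn45s, which takes 32.2% of Bsecs counts, move every log2 fold by a constant, -0.10 for KO over WT luminal, -0.15 for smaller over larger basal, and -0.35, -0.21, -0.16 and -0.26 for Bsecs over larger basal, smaller basal, KO luminal and WT luminal. TMM moved them by at most 0.10. Of 131 folds of named members, 4 changed their 4-fold call with totals and 1 with TMM, and 0 of the called folds changed sign. Both folds that changed sign were near 0, in Bsecs over smaller basal with totals, Col18a1 at -0.13 in place of 0.08 and Col8a1 at -0.04 in place of 0.17. In Bsecs over larger basal, Col4a1 went to -2.18 and Col16a1 to -2.34, both then lower, and Col18a1 to 1.94, no longer higher. Dcn in Bsecs over WT luminal went to -2.23, then lower, and with TMM Col4a2 in Bsecs over smaller basal went to -1.93, no longer called. Genes with few reads have wide intervals, and the 14 members with 15 reads or fewer in all were not compared.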
